A study of Mus musculus with 12 samples.

Results

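The transcription factor NRF2, encoded by Nfe2l2, and 9 genes of the antioxidant response linked to it (Srxn1, Txnrd1, Gclc, Gclm, Hmox1, Nqo1, Sesn1, Sesn2 and G6pdx) were followed in mouse skeletal muscle across a knockout of the transcription factors STAT5A and STAT5B and treatment with growth hormone (GH). The genes were chosen by symbol, and each was read from the probe sets that the platform annotation gives to it, with the brightest over 12 arrays as the main one. Of the 10 genes, 9 had a probe set, 21 probe sets in all, and all 9 passed the filter on low signal, among 18193 genes with a probe set and 12654 genes kept for the test. The annotation used here gave no probe set to G6pdx, and its RNA is not analysed here. The 4 groups of 3 arrays were KO+GH (Stat5a and Stat5b deleted, GH given), WT+GH (both genes intact, GH given), KO (deleted, no GH) and WT (intact, no GH). All groups were total RNA of mice from 1 animal facility, hybridized to Affymetrix arrays that report a linear intensity for each probe set, the MAS5 signal. The labels place the deletion in blood cells, whereas the series title concerns muscle. They name no promoter for the deletion and give neither dose nor duration of GH, nor the age or sex of the animals. By their titles, no 2 arrays share an animal.

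NRF2 is held at a low level by KEAP1, which marks it for degradation. When electrophiles or peroxides modify KEAP1, NRF2 accumulates, pairs with a small MAF protein and binds antioxidant response elements upstream of genes for glutathione synthesis, thioredoxin reduction and quinone and haem breakdown. Much of this control acts on the protein, so the RNA of Nfe2l2 need not follow its activity. In skeletal muscle the pathway is known for handling the peroxides made during contraction. Sestrins, which restrain mTORC1, are better known as targets of p53 and FOXO factors, and STAT5 is the main nuclear effector of the GH receptor.

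Promoter sequence was searched for 4 motifs of factors that act in these pathways. RefSeq windows on build GRCm38.p6, which run from 250 bases before a transcription start to 50 bases after it, were available for 8 members (11 windows). The core of the antioxidant response element, TGACNNNGC on either strand, stood in 6 of these 11 windows, each of a different gene, against 12.4% of the 32851 windows of all genes. The members with it were Nfe2l2, Srxn1, Gclm, Sesn2, Txnrd1 and G6pdx. A STAT motif, TTCNNNGAA, was found in 2 windows of Txnrd1 and in 8.3% of all windows. A FOXO motif, TGTTTAC, was found in 1 window of Sesn1 and in 3.65% of all windows. The core shared by AP-1 and NF-E2 factors, TGAGTCA, which can overlap a longer antioxidant response element, occurred at 2 places in the Srxn1 window and in 5.2% of all windows. That last motif was added after the Srxn1 promoter had been seen. A match describes letters and is not a binding site. The 3 windows below belong to the members that were higher in KO+GH than in WT+GH muscle and run 5′ to 3′ on the gene's strand, with motif matches in capitals. An antioxidant core on the opposite strand reads as its reverse complement, which is the case in Srxn1 (GCTAGGTCA, from position 29 after the start) and in Txnrd1 (GCTTTGTCA, from position -92). In Srxn1 the other capitals mark the 2 copies of TGAGTCA, at -102 and -45. In Txnrd1 they mark the STAT motif, at -230. In Nfe2l2 they mark the antioxidant core, at -240. The windows are chr2:152105274-152105573 on the plus strand for Srxn1, chr10:82858956-82859255 on the plus strand for Txnrd1 and chr2:75704614-75704913 on the minus strand for Nfe2l2.
Srxn1: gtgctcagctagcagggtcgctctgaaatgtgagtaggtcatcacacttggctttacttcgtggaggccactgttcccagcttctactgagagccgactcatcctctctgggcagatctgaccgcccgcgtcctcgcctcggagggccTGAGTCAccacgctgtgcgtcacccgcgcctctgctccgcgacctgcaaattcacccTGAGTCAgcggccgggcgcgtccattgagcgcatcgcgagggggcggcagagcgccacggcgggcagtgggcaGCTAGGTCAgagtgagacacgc
Txnrd1: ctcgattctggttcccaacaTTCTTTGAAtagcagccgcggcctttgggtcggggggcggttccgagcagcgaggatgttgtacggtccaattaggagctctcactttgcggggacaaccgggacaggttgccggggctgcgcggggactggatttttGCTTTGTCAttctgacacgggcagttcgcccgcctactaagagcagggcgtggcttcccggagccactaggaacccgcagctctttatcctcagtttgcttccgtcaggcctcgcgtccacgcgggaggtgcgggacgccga
Nfe2l2: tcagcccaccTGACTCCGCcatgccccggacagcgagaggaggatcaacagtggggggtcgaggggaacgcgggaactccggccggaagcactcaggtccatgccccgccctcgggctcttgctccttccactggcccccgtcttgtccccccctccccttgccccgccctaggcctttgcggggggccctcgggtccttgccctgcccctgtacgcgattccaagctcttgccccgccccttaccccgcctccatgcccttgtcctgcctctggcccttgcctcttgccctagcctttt

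Shorter stretches are given for other members with a motif match, each read on the strand that spells the motif, which is in capitals with 10 bases on either side. They are the antioxidant core of Gclm (chr3:122245413-122245441, minus strand), Sesn2 (chr4:132510474-132510502, minus strand) and G6pdx (chrX:74428919-74428947, plus strand), and the FOXO motif of Sesn1 (chr10:41810586-41810612, plus strand). Gclm and Sesn2 carried the same core as Srxn1 and Txnrd1, and neither was past the threshold in KO+GH against WT+GH muscle.
Gclm: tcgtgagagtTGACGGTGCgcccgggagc
Sesn2: cgcagcgggcTGACAGAGCcgggcgagcg
G6pdx: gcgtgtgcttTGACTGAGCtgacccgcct
Sesn1: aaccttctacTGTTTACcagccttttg

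The arrays matched their genotype labels. Stat5b signal was 332.7, 378.4 and 374.1 in KO+GH muscle, against 1694, 1792 and 1896 in WT+GH muscle. It was 497.5, 372.1 and 414.9 in KO muscle, against 2955, 2640 and 2866 in WT muscle. Stat5a was also lower in the knockouts, with log2 fold changes of -1.21 ± 0.208 with GH and -1.27 ± 0.208 without (SE, limma adjusted p = 0.00231 and 0.00483). All 8 muscle fibre markers averaged signals of 37100 to 55400, whereas the 5 measured red cell markers ran from 8.24 to 394 and the 7 measured hepatocyte markers from 4.28 to 176. Arrays with GH differed from arrays without it in more than GH. Their poly-A control transcripts, which are spiked in before labelling, had a geometric mean signal of 487 to 533, against 151 to 173 without GH. GH and the processing of these arrays therefore cannot be told apart. The beta actin ratio of 3′ to 5′ probe sets, a measure of RNA integrity and labelling, was 0.962 to 1.01 in KO+GH, 0.887 to 0.932 in WT+GH, 0.812 to 0.864 in KO and 0.805 to 0.855 in WT muscle. For Gapdh the same ratio was lowest in KO+GH muscle, at 0.795 to 0.83. It spanned 0.842 to 0.86 in WT+GH muscle and 0.834 to 0.877 on the arrays without GH. The actin and Gapdh ratios thus placed KO+GH muscle at opposite ends. The 3 KO+GH arrays were the most alike, with a median standard deviation per gene of 0.0997 on the log2 scale, against 0.135 in WT+GH, 0.166 in KO and 0.177 in WT muscle. Arrays WT 1 and KO 3 stood apart from the rest in a principal component analysis, and member calls and counts of listed genes that change without them are given below.

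The difference between the genotypes under GH was carried by 3 members. Srxn1, Nfe2l2 and Txnrd1 rose in KO+GH against WT+GH muscle, by 4.39-fold, 1.76-fold and 1.57-fold, and the other 6 members were not past the threshold of an adjusted p under 0.05 in limma. Across all genes kept, 4.53% were past it in this comparison, 2.42% higher and 2.11% lower, and the median log2 fold change was 0.10 over the members and -0.02 over all genes. Values of the 3 KO+GH arrays did not overlap those of the 3 WT+GH arrays in 7 of 9 members, against 30% of all genes. Of these 7 members, 4 were higher and 3 lower in KO+GH.

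Without GH, Gclm and Hmox1 fell in KO against WT muscle and no member rose, while 1.45% of all genes were past the threshold, 0.774% higher and 0.68% lower. At an unadjusted p under 0.05, limma had 2 members higher and 2 lower. The median log2 fold change was -0.11 over the members and 0.00 over all genes. In 4 of 9 members the groups did not overlap, 2 higher and 2 lower in KO, against 13.2% of all genes. Markers of slow muscle fibres differed in the same comparison. Of 8 such markers 6 rose, with a median log2 fold change of 1.98, and their summed signal was 41110 to 50930 in KO muscle, against 14380 to 35390 in WT muscle. Their part in the values of Gclm and Hmox1 was not tested.

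GH was accompanied by higher signal of several members in either genotype. In KO+GH against KO muscle, Srxn1, Txnrd1, Hmox1, Gclc and Nfe2l2 rose and no member fell, also at an unadjusted p under 0.05 in limma. There 24.3% of all genes were past the threshold, 8.93% higher and 15.4% lower. In WT+GH against WT muscle, Sesn1, Srxn1 and Txnrd1 rose and Gclm fell, while 19.1% of all genes were past the threshold, 7.33% higher and 11.8% lower. Groups with and without GH did not overlap in 7 of 9 members in KO (44.4% of all genes) and in 5 of 9 in WT (34.3% of all genes). With GH all 7 were higher in KO, and 4 were higher and 1 lower in WT. The median log2 fold change with GH was 0.37 over the members and -0.06 over all genes in KO, and 0.30 over the members and -0.06 over all genes in WT. The GH difference itself depended on genotype for Srxn1 and Txnrd1 by limma's interaction test, which compares KO+GH minus KO with WT+GH minus WT, which 0.933% of all genes passed, 0.624% higher and 0.308% lower. No member was past it in the lower direction, and 1 was at an unadjusted p under 0.05. After the arrays were centred on their medians, the median of all genes lay at -0.245 in KO+GH against KO and at -0.24 in WT+GH against WT muscle, and 13.3% and 11.1% of the genes called were higher, in place of 36.7% and 38.4%. Other cell and fibre markers also moved with GH. Of 8 muscle fibre markers 6 fell in KO+GH against KO muscle, with a median log2 fold change of -0.43. None was past limma's threshold in WT+GH against WT muscle, with a median of -0.23 and 3 lower at an unadjusted p under 0.05. Of 8 slow fibre markers none was past limma's threshold in KO+GH against KO muscle, with 1 higher at an unadjusted p under 0.05, and 6 rose in WT+GH against WT muscle, with medians of -0.21 and 1.36. Of 6 tested adipocyte markers 4 fell with GH in each genotype, and their summed signal was 37460 to 40240 in KO+GH, 37910 to 40340 in WT+GH, 43560 to 73230 in KO and 43670 to 62160 in WT muscle. Their part in the members' values was not tested. Each group enters several of these comparisons, so that they are not independent of each other.

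**Figure D1:**
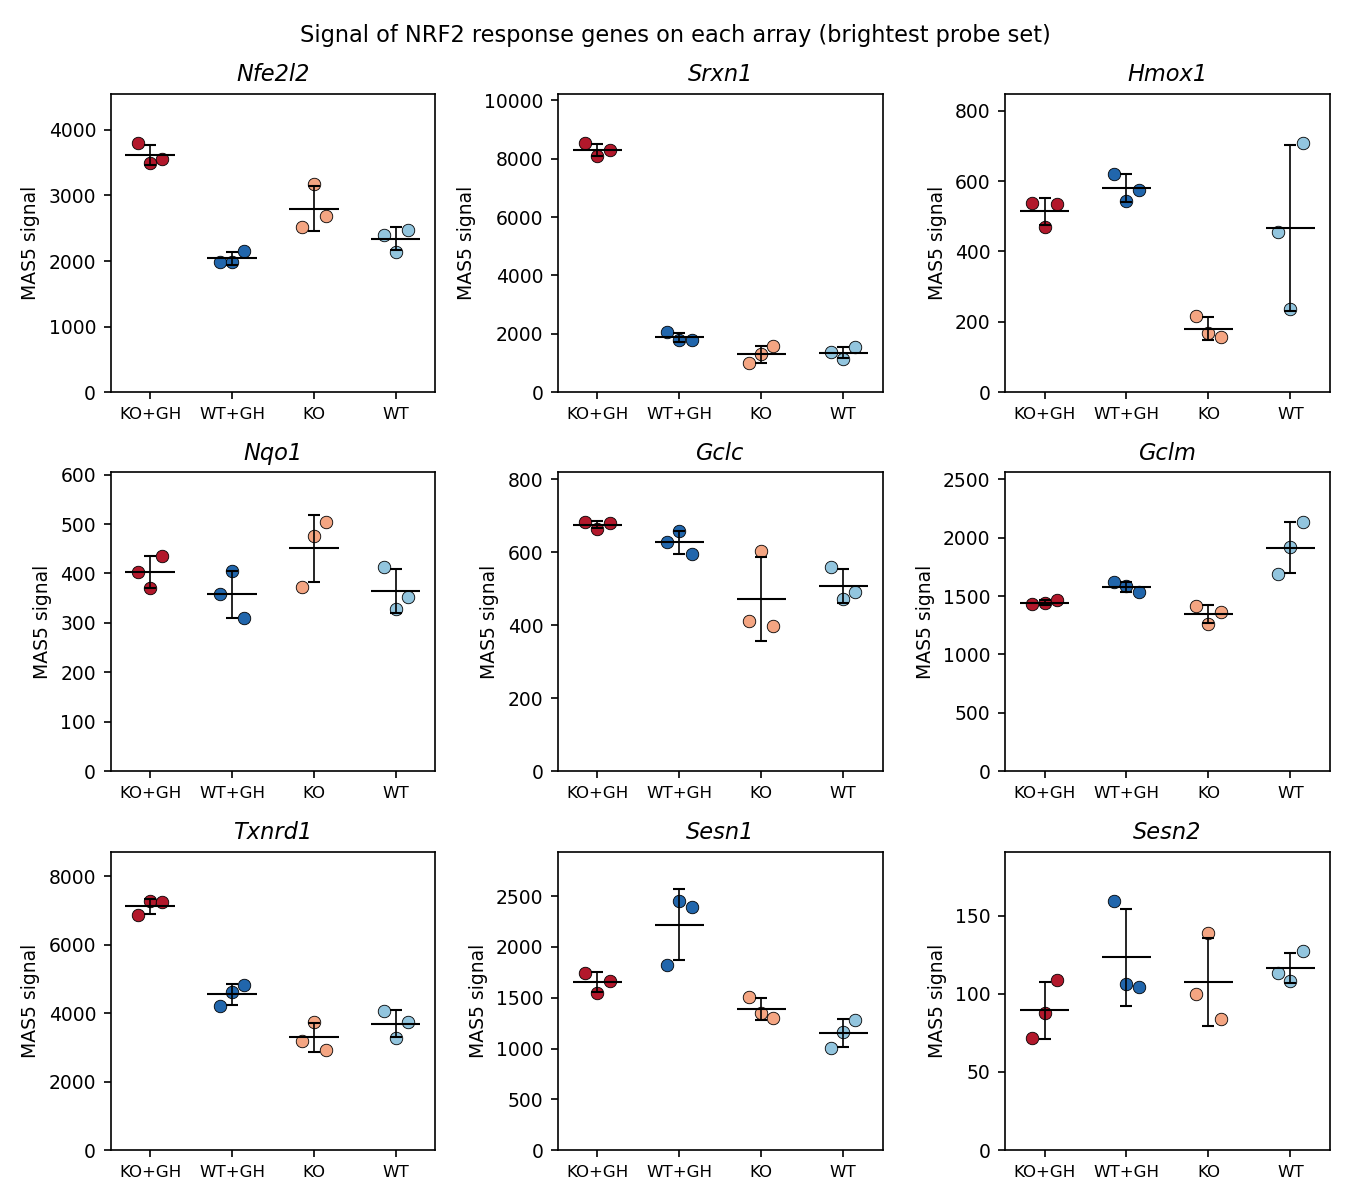
MAS5 signal (linear scale, y axis) of the brightest probe set of each of the 9 measured genes in KO+GH, WT+GH, KO and WT muscle; points are the 3 arrays of a group, the horizontal line their mean and the error bar their standard deviation. Srxn1 lay between 8107 and 8530 on the KO+GH arrays and at or below 2048 on the other 9 arrays.

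**Figure D2:**
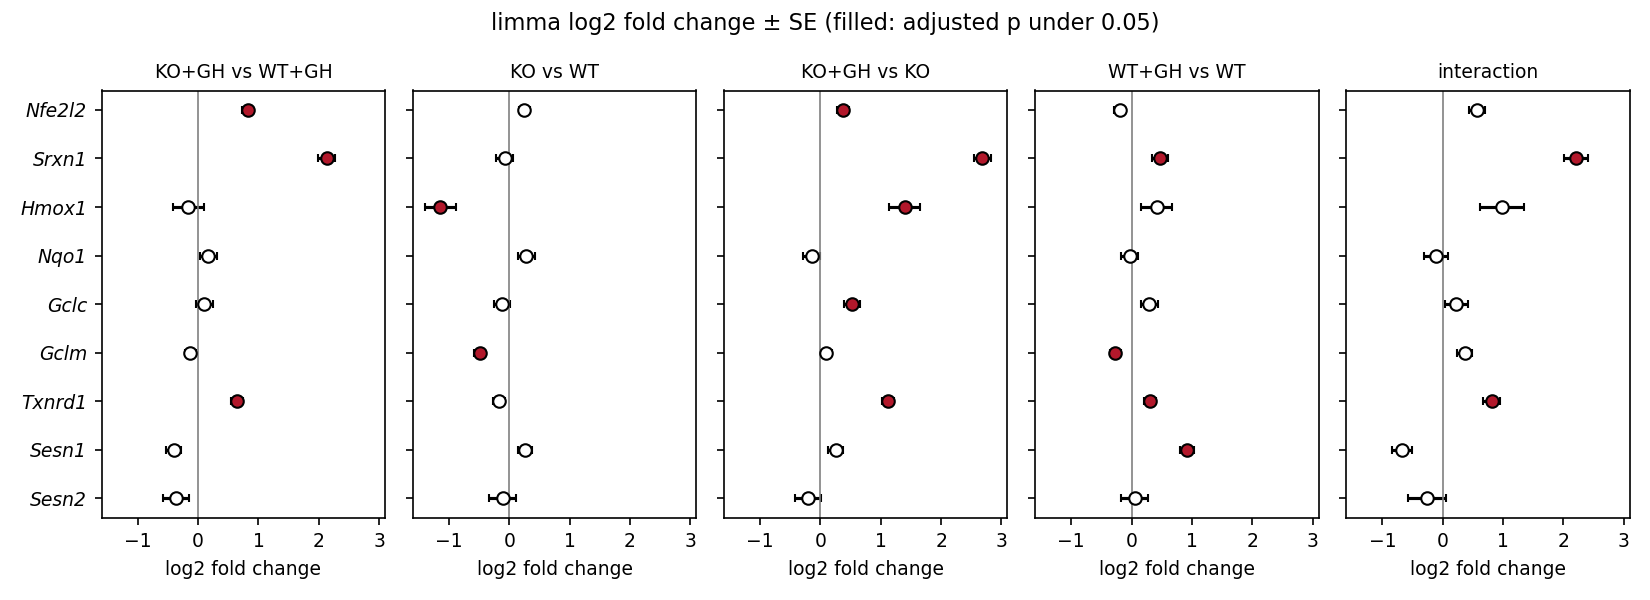
Log2 fold change (x axis) with its standard error from limma for the 9 genes (rows) in the 5 comparisons (panels); filled points passed an adjusted p under 0.05. Srxn1 and Txnrd1 are filled in the interaction panel, at 2.21 and 0.81.

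Nfe2l2, the factor itself, had signals of 3796, 3500 and 3552 in KO+GH muscle, against 1980, 1990 and 2149 in WT+GH muscle. Without GH it had 2519, 3180 and 2688 in KO and 2399, 2140 and 2472 in WT muscle. The KO+GH arrays were above all others, and the KO arrays stood above the WT arrays with a small gap. Under GH the log2 fold change was 0.82 ± 0.0921 (KO+GH against WT+GH, SE, limma adjusted p = 5.42e-05), whereas it was 0.25 ± 0.0921 without GH (adjusted p = 0.265). Nfe2l2 rose by 0.37 ± 0.0921 in KO+GH against KO muscle (adjusted p = 0.00853), and the difference was -0.19 ± 0.0921 in WT+GH against WT muscle (adjusted p = 0.162). The interaction, 0.57 ± 0.13, had an adjusted p of 0.0582. With the beta actin ratio as a covariate the difference between KO+GH and WT+GH was 0.60 (adjusted p = 0.0257), while that between KO+GH and KO was -0.05 (adjusted p = 0.939). Median centring gave 0.19 for KO+GH against KO (adjusted p = 0.161) and -0.38 for WT+GH against WT muscle, past the threshold (adjusted p = 0.0126). The interaction was past the threshold under 5 of 24 alternatives, 2 of which left out array KO 2 (0.66, adjusted p = 0.0167) or WT 2 (0.63, adjusted p = 0.0346). The order of the groups was KO+GH, KO, WT and WT+GH, and neither KO and WT nor WT and WT+GH were told apart by the test. The other Nfe2l2 probe set was dim, with group means of 44.1 in KO+GH, 32.6 in WT+GH, 30.2 in KO and 10.96 in WT muscle, and the difference under GH was past the threshold no longer when both probe sets were averaged (0.57, adjusted p = 0.164).

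Srxn1 encodes sulfiredoxin, which reduces overoxidized peroxiredoxins at the cost of ATP and is a classical NRF2 target. Its signal was 8530, 8107 and 8291 in KO+GH muscle, against 2048, 1785 and 1801 in WT+GH muscle. In KO muscle it was 997, 1296 and 1594, against 1373, 1151 and 1540 in WT muscle. The KO+GH arrays were thus far above the rest, the WT+GH arrays came next, and KO and WT arrays overlapped. The log2 fold change was 2.13 ± 0.139 in KO+GH against WT+GH muscle (SE, limma adjusted p = 1.62e-07) and -0.08 ± 0.139 in KO against WT muscle (adjusted p = 0.893). In KO+GH against KO muscle it was 2.68 ± 0.139, a 6.42-fold rise (adjusted p = 1.04e-08), and in WT+GH against WT muscle 0.47 ± 0.139, a 1.39-fold rise (adjusted p = 0.0277). The interaction of genotype and GH was 2.21 ± 0.196 (adjusted p = 1.65e-05). All 4 Srxn1 probe sets were higher in KO+GH than in WT+GH muscle, by log2 differences of 2.13, 2.33, 2.36 and 1.55. They were less alike for GH in WT, where they gave 0.47, 0.30, 0.34 and -0.39. With the beta actin ratio as a covariate Srxn1 remained past the threshold in KO+GH against WT+GH (1.81, adjusted p = 9.3e-05) and against KO muscle (2.03, adjusted p = 0.00652), but not in WT+GH against WT muscle (0.10, adjusted p = 0.841). The small rise in WT was past the threshold no longer under 8 of 25 alternatives. Among them were leaving out any of the WT+GH arrays or WT 2, at log2 fold changes of 0.36 to 0.51.

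Txnrd1 encodes cytosolic thioredoxin reductase, which passes electrons from NADPH to thioredoxin. Its main probe set read 6875, 7269 and 7236 in KO+GH muscle, against 4216, 4610 and 4824 in WT+GH muscle. It read 3196, 3757 and 2936 in KO muscle, against 4069, 3287 and 3740 in WT muscle. Groups with GH lay above those without it, and KO+GH above WT+GH, while KO and WT overlapped. Txnrd1 rose by 0.65 ± 0.0988 in KO+GH against WT+GH (SE, limma adjusted p = 0.000851), by 1.11 ± 0.0988 in KO+GH against KO (adjusted p = 1.84e-06) and by 0.30 ± 0.0988 in WT+GH against WT muscle (adjusted p = 0.0457). The interaction was 0.81 ± 0.14 (adjusted p = 0.00737). The rise in WT was past the threshold no longer under 13 of 25 alternatives, among them median centring (0.12, adjusted p = 0.459), the beta actin covariate (0.12, adjusted p = 0.723) and leaving out WT+GH 2, WT+GH 3, WT 2 or WT 3 (0.22 to 0.31). The other probe sets of Txnrd1 did not show the genotype difference under GH, at log2 differences of 0.03 and -0.03, but were higher with GH, by 0.61 and 1.04 in KO and by 0.50 and 0.74 in WT muscle. When its 3 probe sets were averaged, the genotype difference under GH was 0.22 (adjusted p = 0.287) and the interaction 0.41 (adjusted p = 0.281), so both calls rest on the brightest probe set. With the beta actin ratio as a covariate the values were 0.49 (adjusted p = 0.158) and 0.68 (adjusted p = 0.12), and 0.81 in KO+GH against KO muscle (adjusted p = 0.151).

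**Figure D3:**
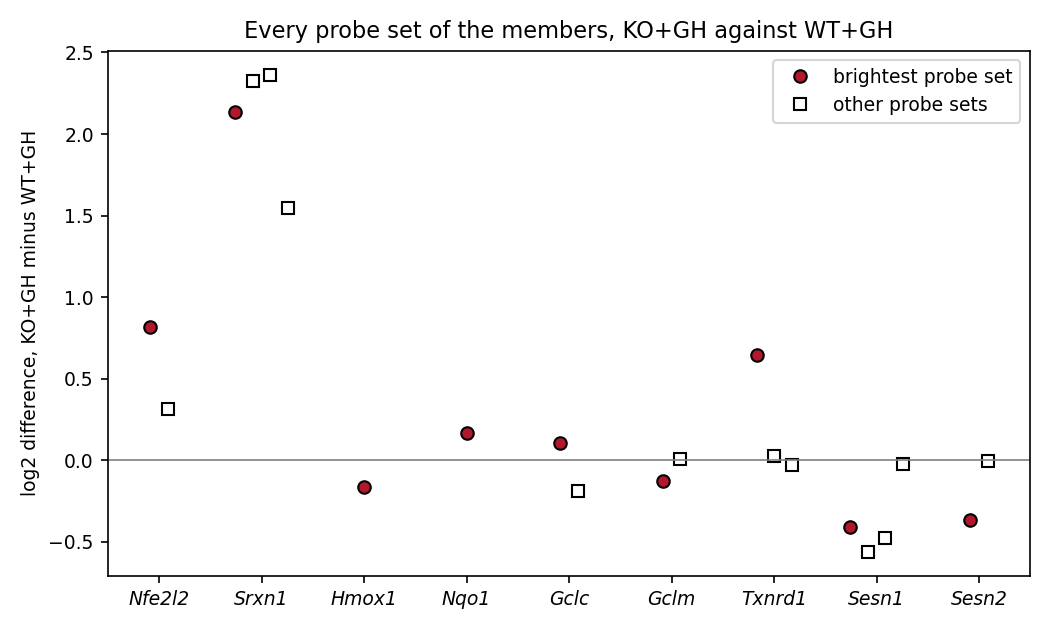
Log2 difference between KO+GH and WT+GH muscle (y axis) for every probe set of the 9 genes (x axis); circles are the brightest probe set of each gene and squares the others. The 4 probe sets of Srxn1 lie between 1.55 and 2.36, while those of Txnrd1 spread over 0.65, 0.03 and -0.03.

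**Figure D4:**
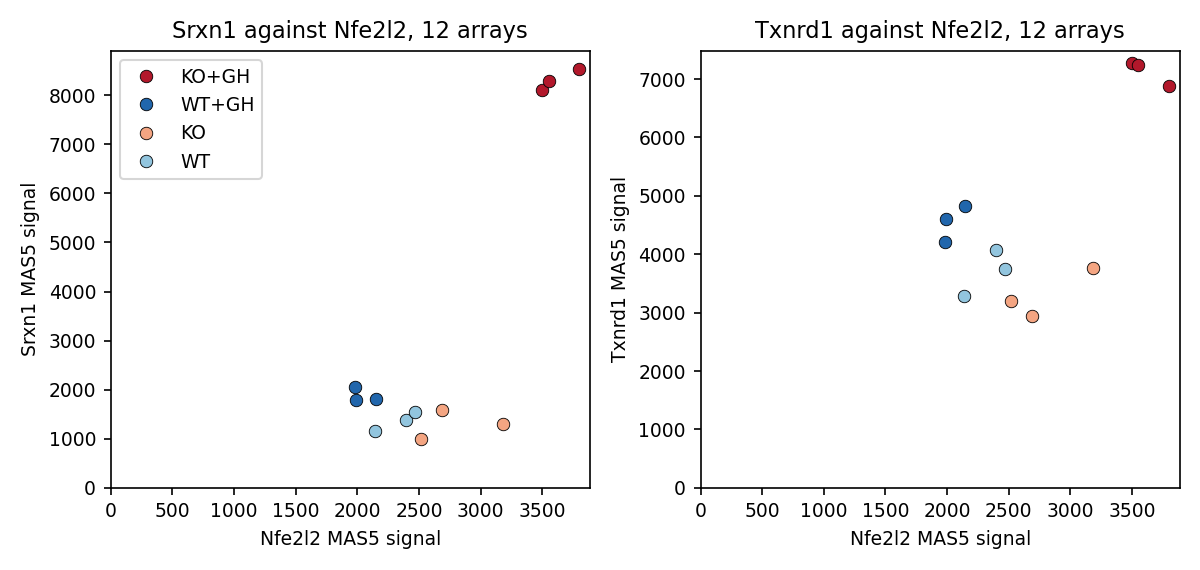
Signal of Srxn1 (left) and Txnrd1 (right) against that of Nfe2l2, both as MAS5 signal, on the 12 arrays coloured by group. The KO+GH arrays, with Nfe2l2 at 3500 to 3796, form a cluster of their own, and the highest KO array has Nfe2l2 at 3180 with Srxn1 at 1296.

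Over the 12 arrays Pearson's r between Nfe2l2 and Srxn1 on the log2 scale was 0.732, and it was 0.438 after each group's mean had been removed. Both are given as a description, since the points share their arrays and the arrays fall into clusters by group. All 3 KO arrays had more Nfe2l2 than any WT+GH array (2519 to 3180 against 1980 to 2149). They also had less Srxn1 (997 to 1594 against 1785 to 2048). KO and WT+GH muscle differ in genotype and also in GH, which cannot be told apart from array processing. Whether Nfe2l2 RNA bears on Srxn1 was not tested.

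Glutathione is made in a first step by glutamate cysteine ligase, whose catalytic subunit is encoded by Gclc and whose modifier subunit is encoded by Gclm. Gclc had signals of 682.3, 664.8 and 679.5 in KO+GH muscle, against 628.8, 658.9 and 595.3 in WT+GH muscle. It had 410.6, 604.4 and 398.9 in KO muscle, against 559.9, 471 and 492.3 in WT muscle. Except for KO 2, all arrays without GH lay below all arrays with it. Gclc rose by 0.52 ± 0.136 in KO+GH against KO muscle (SE, limma adjusted p = 0.0118) and was 0.30 ± 0.136 higher in WT+GH than in WT muscle, which was not past the threshold (adjusted p = 0.146). The rise in KO was past it no longer with median centring (0.34, adjusted p = 0.0777), without array KO 1 (0.44, adjusted p = 0.0506), after the other probe set was averaged in (0.39, adjusted p = 0.0765) or with the beta actin covariate (0.24, adjusted p = 0.816). The genotypes differed by 0.10 ± 0.136 with GH and by -0.12 ± 0.136 without (adjusted p = 0.783 and 0.798).

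Gclm signal was 1430, 1440 and 1466 in KO+GH muscle, against 1619, 1590 and 1535 in WT+GH muscle. It was 1418, 1265 and 1365 in KO muscle, against 1693, 1917 and 2133 in WT muscle. WT was the highest group and the knockouts the lowest, with no overlap between the genotypes with or without GH. Gclm fell by 0.49 ± 0.0888 in KO against WT muscle (log2, SE, limma adjusted p = 0.00882), and its other probe set gave -0.46. The call was lost when array KO 2 was left out (-0.45, adjusted p = 0.0511) and with only the groups compared in the fit (adjusted p = 0.186). Under GH the log2 fold change between KO+GH and WT+GH was -0.13 ± 0.0888 (adjusted p = 0.533). Gclm also fell by 0.27 ± 0.0888 in WT+GH against WT muscle, at an adjusted p of 0.0485, and GH gave 0.10 ± 0.0888 in KO muscle (adjusted p = 0.453). The fall in WT was past the threshold no longer under 15 of 25 alternatives. Among them were leaving out any of the WT+GH arrays, WT 2 or WT 3, at log2 fold changes of -0.28 to -0.19. Averaged probe sets gave -0.22 (adjusted p = 0.167) and the beta actin covariate -0.16 (adjusted p = 0.604).

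Hmox1 encodes haem oxygenase 1, the inducible enzyme that opens the haem ring and releases iron, which macrophages express strongly. Its signal was 536.9, 470.1 and 536 in KO+GH muscle, against 620.7, 542.1 and 575.9 in WT+GH muscle. It was 217.9, 168.8 and 156.2 in KO muscle, against 454.4, 237.6 and 707.5 in WT muscle. The KO arrays were the lowest of all, and the WT arrays spread so widely that they spanned the values of every group with GH. Hmox1 fell by 1.145 ± 0.259 in KO against WT muscle (log2, SE, limma adjusted p = 0.0446) and rose by 1.40 ± 0.259, or 2.64-fold, in KO+GH against KO muscle (adjusted p = 0.00149). With GH the genotypes differed by -0.17 ± 0.259 (adjusted p = 0.819). The GH difference was 0.42 ± 0.259 in WT muscle (adjusted p = 0.29), and the interaction was 0.98 ± 0.367 (adjusted p = 0.337). Single WT arrays decided both: without WT 3 the GH difference in WT was 0.77 and past the threshold (adjusted p = 0.0265), and without WT 2 the interaction was 1.37 and past it (adjusted p = 0.00981). The fall in KO was past the threshold no longer under 16 of 25 alternatives, and was -0.80 without array WT 3 (adjusted p = 0.108) and -1.02 without WT 1 and KO 3 (adjusted p = 0.209). The rise with GH in KO was 0.89 with the beta actin covariate (adjusted p = 0.611). The summed signal of 10 macrophage markers was 9399 to 9551 in KO+GH, 9567 to 9927 in WT+GH, 11250 to 15860 in KO and 11880 to 18680 in WT muscle. Of these 10 markers none was past the threshold in KO against WT muscle, at an adjusted or an unadjusted p under 0.05 in limma, and 6 fell and 1 rose in KO+GH against KO muscle. The 10 neutrophil markers summed to 4091 to 4250 in KO+GH and 4803 to 5238 in WT+GH, against 651.6 to 788.4 in KO and 667 to 938 in WT muscle. Of the 7 that passed the filter on low signal, 4 rose with GH in each genotype and 1 fell in KO muscle. The part of these cells in the values of Hmox1 or of any other member was not tested, and in whole tissue fewer cells of a type and less RNA per cell cannot be told apart.

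Nqo1 encodes a quinone reductase that is widely used as a readout of NRF2. It read 403.7, 370.4 and 435 in KO+GH muscle, against 357.7, 405.7 and 309.3 in WT+GH muscle, and 373.2, 475.1 and 503.6 in KO muscle, against 414, 327.8 and 353.4 in WT muscle. All groups overlapped, and no comparison was past the threshold. The largest of its differences in size, KO against WT without GH, was 0.28 ± 0.142 (log2, SE, limma adjusted p = 0.475). Under GH the genotype difference was 0.17 ± 0.142 (adjusted p = 0.63), beside the rise of 2.13 in Srxn1.

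The sestrins split. Sesn1 had signals of 1746, 1550 and 1668 in KO+GH muscle, against 1820, 2449 and 2388 in WT+GH muscle. It had 1508, 1354 and 1300 in KO muscle, against 1010, 1167 and 1281 in WT muscle. WT+GH was the highest group and WT the lowest, and neither pair of genotypes overlapped. Sesn1 rose by 0.92 ± 0.118 in WT+GH against WT muscle (log2, SE, limma adjusted p = 8.84e-05), a 1.9-fold rise that was past the threshold under all 25 alternatives. In KO+GH against KO muscle the difference was 0.25 ± 0.118 (adjusted p = 0.137), but 0.58 and past the threshold with the mean of its probe sets (adjusted p = 0.00439), and 0.79 without _x_at and _s_at probe sets (adjusted p = 0.000241). Under GH the genotypes differed by -0.41 ± 0.118 (adjusted p = 0.0662), which passed the threshold under 6 of 25 alternatives, and the interaction of -0.67 ± 0.167 had an adjusted p of 0.0857. Without array WT+GH 1 both were past it, at -0.54 (adjusted p = 0.0142) and -0.81 (adjusted p = 0.0221). All 4 Sesn1 probe sets were higher with GH, by 0.25, 0.79, 0.82 and 0.44 in KO muscle and by 0.92, 1.01, 1.29 and 0.81 in WT muscle, so that the brightest gave the smallest GH difference in KO. Sesn2 was close to the lower limit of the genes kept, at 71.9, 87.6 and 108.7 in KO+GH muscle, against 159.2, 106.3 and 104.5 in WT+GH muscle. It was 100, 138.8 and 84.2 in KO muscle, against 113.4, 108.4 and 127.1 in WT muscle. Its groups overlapped in all comparisons and none was past the threshold, with log2 fold changes from -0.37 to 0.05.

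Around these members, 8 lists of genes of the same pathways held 104 genes, of which 96 had a probe set and 90 were tested. In KO+GH against WT+GH muscle, 4 of the 90 rose and 11 fell, with a median log2 fold change of -0.01, while 2.42% of all genes rose and 2.11% fell. In KO against WT muscle 1 rose and 1 fell, with a median of 0.00, while 0.774% of all genes rose and 0.68% fell. With GH 13 rose and 30 fell in KO muscle, and 13 rose and 25 fell in WT muscle, with medians of -0.17 and -0.13. Of all genes 8.93% rose and 15.4% fell with GH in KO, and 7.33% rose and 11.8% fell in WT muscle, so that lower calls were also the larger part there. These shares of all genes also stand beside the counts of each single list below. With the beta actin ratio as a covariate 1 of the 90 rose and 2 fell in KO+GH against WT+GH muscle, and with GH 3 rose and 2 fell in KO and 6 rose and 4 fell in WT muscle. Without arrays WT 1 and KO 3, 6 rose and 14 fell of 91 in KO+GH against WT+GH, 1 rose and 2 fell in KO against WT, 15 rose and 35 fell with GH in KO, and 15 rose and 29 fell with GH in WT muscle. In the interaction Osgin1 and Gadd45a were past the threshold, both higher, and without these arrays 2 genes were higher and 2 lower.

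Among 11 partners and repressors of NRF2, Mafk was the gene that rose in KO+GH against WT+GH muscle. It encodes a small MAF protein that pairs with NRF2, its mean signal was 2158 in KO+GH and 1268 in WT+GH muscle, and its log2 fold change was 0.76 ± 0.132 (SE, limma adjusted p = 0.0025). In KO+GH against KO muscle Mafk, Mafg, Bach1 and Maff rose, by 0.96, 0.52, 0.39 and 0.78, and Nfe2l1 fell by 0.35. BACH1 competes with NRF2 for the same elements. In WT+GH against WT muscle Maff and Bach1 rose, by 1.35 and 0.29, and Cul3, part of the ligase that KEAP1 recruits NRF2 to, fell by 0.26. The calls of Bach1 and Cul3 in WT were lost under 11 and 17 of 25 alternatives. In KO against WT muscle none of the 11 was past the threshold, and at an unadjusted p under 0.05 limma had 1 higher and 3 lower.

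Of 19 glutathione genes, 3 fell in KO+GH against WT+GH muscle and none rose. They were Mgst1, a microsomal glutathione transferase (-0.68 ± 0.133, limma adjusted p = 0.00636), Ggct (-0.74 ± 0.179, adjusted p = 0.0248) and Chac1 (-0.87 ± 0.212, adjusted p = 0.0336), of which the last 2 encode enzymes of glutathione breakdown. The calls of Ggct and Chac1 were lost under 9 and 8 of 25 alternatives. Chac1 also fell in KO against WT muscle (-0.95 ± 0.212, adjusted p = 0.0486, lost under 14 of 25), where Gstm2, a cytosolic glutathione transferase, rose (0.54 ± 0.0943, adjusted p = 0.00766). With GH 7 fell and none rose in KO muscle, led by the glutathione peroxidases Gpx1 and Gpx3 with Mgst1 and Gstt1 (-0.50, -0.77, -0.62 and -0.62). With the beta actin covariate none of the 19 was past the threshold there, and these genes were at -0.27, -1.09, 0.02 and -0.72. In WT muscle 5 fell, led by Gpx1, Glrx and Gpx3 (-0.40, -0.49 and -0.56), and Gstm2 rose by 0.80. At an unadjusted p under 0.05 limma had 1 of the 19 higher in KO+GH against WT+GH and 2 higher in KO+GH against KO muscle.

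Of 9 peroxiredoxin and thioredoxin genes, Txnip, which binds and inhibits thioredoxin (-0.46 ± 0.0882, limma adjusted p = 0.00565), and Txnrd3, a further thioredoxin reductase (-0.64 ± 0.158, adjusted p = 0.0287), fell in KO+GH against WT+GH muscle. The call of Txnrd3 was lost under 7 of 25 alternatives. With GH in KO muscle 3 fell, namely Prdx3, the mitochondrial peroxiredoxin, by 0.32, Txnip by 0.36 and Txn2, the mitochondrial thioredoxin, by 0.24 (lost under 9 of 25 alternatives, and 0.08 with the beta actin covariate). With GH in WT muscle Txnrd3 rose (0.62 ± 0.158), as did the sestrin Sesn3 (0.61 ± 0.17), and Prdx3 fell by 0.35. The calls of Txnrd3 and Sesn3 were lost under 4 and 5 of 25 alternatives, and Txnrd3 changed sign under 1. Of 9 NADPH supply genes, the pentose phosphate enzyme Rpia rose in KO+GH against WT+GH muscle (0.45 ± 0.105, adjusted p = 0.0228, lost under 7 of 25 alternatives). With GH 5 of the 9 fell and none rose in KO muscle, led by Pgd, which follows the enzyme encoded by G6pdx in the pathway, with Rpia, Taldo1 and Pgls (-0.64, -0.49, -0.39 and -0.41). With the beta actin covariate none of the 9 was past the threshold there, and these genes were at -0.02, -0.31, 0.05 and 0.06. In WT muscle 5 fell and 1 rose, led by falls of Pgd, Rpia, Taldo1 and Tkt (-0.88, -0.57, -0.47 and -1.47), and the gene that rose was Mthfd1 (0.28, adjusted p = 0.0376, lost under 11 of 25 alternatives). Limma had 0 higher in KO at an unadjusted p under 0.05.

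Of 11 haem and iron genes beside Hmox1, Hpx, the haem carrier hemopexin, fell in KO+GH against WT+GH muscle (-1.08 ± 0.277, limma adjusted p = 0.0355, lost under 9 of 24 alternatives) at low mean signals of 62.3 in KO+GH and 162 in WT+GH. With GH 6 fell and none rose in KO, and 4 fell and none rose in WT muscle. At an unadjusted p under 0.05 limma had 0 higher in KO and 1 higher in WT. The iron exporter Slc40a1 fell by 1.20 in KO and 0.998 in WT muscle, and the biliverdin reductase gene Blvrb fell by 1.19 in KO and 0.62 in WT muscle. Fth1, the ferritin heavy chain, and the transferrin receptor Tfrc fell in KO, both by 0.49. Blvra fell by 0.47 in WT and by 0.32 in KO muscle, where its call was lost under 4 of 25 alternatives. Fech, the last enzyme of haem synthesis, fell by 0.26 in WT, and its call was lost under 17 of 25 alternatives. These falls stand beside a rise of Hmox1 by 1.40 in KO. Of 8 superoxide and peroxide enzymes, the extracellular superoxide dismutase gene Sod3 fell in KO+GH against WT+GH muscle (-0.45 ± 0.113, adjusted p = 0.0306, lost under 7 of 25 alternatives). With GH 4 fell and 1 rose in KO muscle, among them Sod3, Cyba and Sod2 (-1.14, -0.43 and -0.29) and Xdh, which rose by 0.75. The calls of Sod2 and Xdh were each lost under 7 of 25 alternatives, and Sod2 was at 0.02 with the beta actin covariate. In WT muscle Sod3 and the catalase gene Cat fell, by 0.73 and 0.64.

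Of 13 detoxification and transport genes known as NRF2 targets, Osgin1 was the gene past the threshold in the interaction. Its mean signal was 1328 in KO+GH muscle, against 710.6 in WT+GH, 705.9 in KO and 902.3 in WT muscle. It rose by 0.88 ± 0.129 in KO+GH against WT+GH (SE, limma adjusted p = 0.000576) and by 0.90 ± 0.129 in KO+GH against KO muscle (adjusted p = 0.000173), and its interaction was 1.24 ± 0.182 (adjusted p = 0.00227). With the beta actin covariate these were 0.71 (adjusted p = 0.118), 0.55 (adjusted p = 0.492) and 1.09 (adjusted p = 0.047). The transporter gene Abcc1 fell in KO+GH against WT+GH muscle (-0.53 ± 0.0865, adjusted p = 0.00153). With GH 2 rose and 2 fell in KO muscle, Osgin1, the transporter gene Abcc4 (0.63), the carbonyl reductase gene Cbr1 (-0.43) and Akr1b8 (-0.47). Of all genes 8.93% rose and 15.4% fell there. In WT muscle Abcc4 rose by 0.48 and 4 genes fell, namely Aox1, Akr1b8, Cbr1 and Cbr3 (-0.38, -0.58, -0.37 and -0.51).

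Of 10 genes listed around p53 and FOXO factors, 6 rose and 2 fell with GH in KO, and 6 rose and 3 fell in WT muscle. The list held targets of these factors, as the sestrins are, with genes of FOXO factors themselves and other stress genes. Ddit4, an inhibitor of mTORC1, had mean signals of 4832 in KO+GH, 15630 in WT+GH, 708.8 in KO and 1239 in WT muscle. It fell in KO+GH against WT+GH muscle (-1.69 ± 0.193, limma adjusted p = 0.000101), as did Foxo1 (-0.81 ± 0.128, adjusted p = 0.00104) and Tigar (-0.40 ± 0.0993, adjusted p = 0.0285, lost under 10 of 25 alternatives). Gadd45a, a stress gene of cell cycle arrest, rose in that comparison (1.12 ± 0.162, adjusted p = 0.000549). Its interaction of 1.14 ± 0.229 was past the threshold (adjusted p = 0.0256), though not under 10 of 24 alternatives, among them the fit without WT 1 and KO 3. With GH in KO muscle the leading changes were rises of Gadd45a (2.57), Ddit4 (2.78) and Cdkn1a (1.999) and a fall of Tigar (-1.78). In WT+GH against WT muscle they were rises of Ddit4 (3.65), Foxo1 (1.47) and Gadd45a (1.43) and a fall of Tigar (-1.45), beside the rise of 0.92 in Sesn1.

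**Figure D5:**
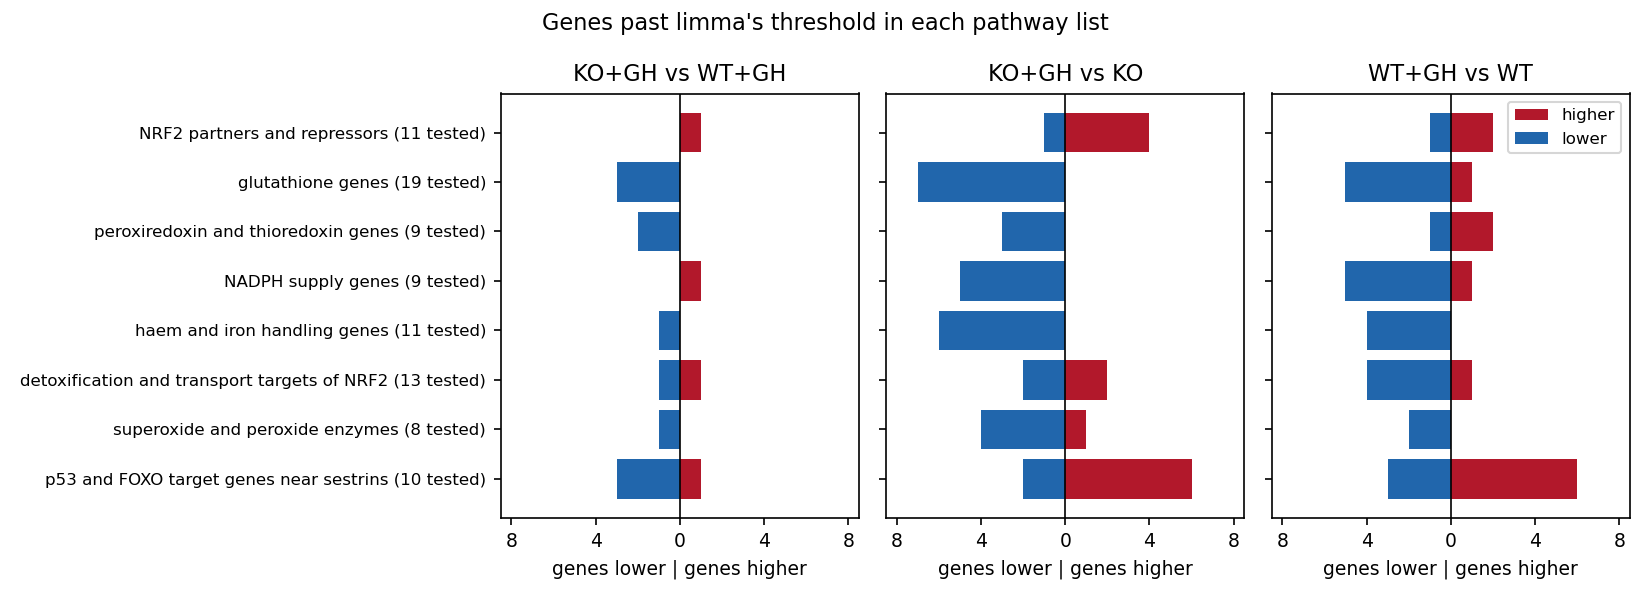
Number of genes past limma's adjusted p of 0.05 (x axis, lower to the left and higher to the right) in 8 pathway lists (rows, with the number tested) for KO+GH against WT+GH, KO+GH against KO and WT+GH against WT muscle. The glutathione list has 3, 7 and 5 genes lower in the 3 panels, where 2.11%, 15.4% and 11.8% of all genes were lower.

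Genes whose values over the 12 arrays were most like those of Nfe2l2 and Srxn1, by Pearson's r on the log2 scale, are given as a description. For Nfe2l2 they were Nog (0.937), Nek6 (0.93) and Plekhb1 (0.923), with mean signals of 736.5, 652.9 and 4327 in KO+GH muscle, against 295, 380.2 and 2384 in WT+GH muscle. For Srxn1, the member with the widest spread of group means, they were Rrad (0.987), Sh3bp2 (0.979) and Dusp5 (0.976). Rrad had a mean signal of 5793 in KO+GH, against 154.4 in WT+GH, 99.2 in KO and 111.1 in WT muscle. Dusp5 had 640.2 in KO+GH, against 21.6 in WT+GH, 13.1 in KO and 13.6 in WT muscle. The points share their arrays and groups, and no p is given.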

How the data were processed

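Total RNA was labelled with biotin and hybridized to 1-colour Affymetrix arrays. The authors deposited 1 table of MAS5 signal intensity for 45101 probe sets on 12 arrays, and MAS5 is named in the submitters' processing notes. Its version and settings are not given in the sources used here. The mean signal without the lowest and highest 2% was 500 on every array, so the deposited intensities are scaled to 1 target. No detection calls were used. With 3 arrays per group, precision is limited by their number.

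From these values log2(signal + 25) was computed, where 25 is the pooled 25th percentile. Left out were 64 controls, 932 probe sets whose annotation lists several genes and 9160 that it leaves unnamed. The other 34945 were named through the platform annotation and its gene identifiers, and 162 symbols were kept as annotated. A gene was read from its brightest probe set and kept if its mean exceeded the 40th percentile of probe sets (log2 of 6.253). Differential expression was tested with limma 3.58.1 (R 4.3.3, statmod 1.5.0), with a mean per group over 12 arrays, 8 residual degrees of freedom, a mean trend and robust eBayes. P-values are 2-sided and Benjamini-Hochberg adjusted over 12654 genes. Values after ± are standard errors of log2 fold changes, and a fold on the log2(signal + 25) scale understates the change of dim genes. "Rose" and "fell" mean past an adjusted p of 0.05. The method was tested on simulated data.

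The genes, lists and tests were chosen with earlier results of these data known. Named beside the members were, in each list and comparison, up to 4 genes past the threshold with the smallest p. Maff and Blvra with GH in KO, and Abcc4 and Mthfd1 with GH in WT, fall outside this rule and were chosen after their values were seen. By their titles no 2 arrays share an animal, and array numbers within groups follow accession order. Nothing in the labels states separate rearing or handling, so p-values measure the spread between these samples. Other scalings, filters, probe set rules, model settings and leaving out each array were tried. The fits without WT 1 and KO 3 together and with the beta actin ratio as a covariate were added after seeing the data. Since that ratio separated KO+GH, WT+GH and the arrays without GH, calls lost with it cannot tell RNA quality from group. The Gapdh ratio placed KO+GH at the opposite end and was not used as a covariate.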

Additional observations from a re-analysis of the deposited data

Results flagged for a closer look

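The GH difference of Srxn1 was larger in KO than in WT muscle by 2.21 on the log2 scale (limma interaction test, adjusted p = 1.65e-05): the gene was 2.68 higher in KO+GH than in KO muscle and 0.47 higher in WT+GH than in WT muscle, and all 3 KO+GH arrays lay above every other array. The GH difference of Txnrd1 was larger in KO than in WT muscle by 0.81 (adjusted p = 0.00737), at 1.11 and 0.30, on its brightest probe set. The adjusted p of the interaction ranged up to 0.00111 for Srxn1 and up to 0.281 for Txnrd1 over 24 alternatives.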

How the results depend on the processing

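Of 45 member results (9 genes in 5 comparisons), 16 were past the threshold. Of these, 4 stayed past it under every alternative: Srxn1 in KO+GH against WT+GH, in KO+GH against KO and in the interaction, and Sesn1 in WT+GH against WT muscle. The other 12 lost the threshold under at least 1 alternative, and the cause was not tested. The reported number of members lower in KO against WT was 2. It was 1 with median centring, quantile normalization, the mean of all probe sets, no trend and no robust, or without WT 1 and KO 3 together, it was 0 with only the groups compared in the fit, and leaving out each array in turn gave 0 to 2. Members higher in KO+GH against WT+GH numbered 3, and 1 with the mean of all probe sets. Members lower there numbered 0, and 1 without _x_at and _s_at probe sets, with only the groups compared in the fit, with array weights or without WT 1 and KO 3 together, with 0 to 1 when each array was left out. Members higher with GH in WT numbered 3, and 1 with median centring, no trend and no robust or the actin ratio as a covariate, with 1 to 3 when each array was left out. The call of Txnrd1 there was also lost with no filter or only the groups compared, and that of Srxn1 with the mean of all probe sets. Members lower with GH in WT numbered 1. It was 2 with median centring and 0 with quantile normalization, no filter, the mean of all probe sets, only the groups compared, no trend and no robust or the actin ratio, with 0 to 1 when each array was left out. Members higher with GH in KO numbered 5, and 3 with median centring and 1 with the actin ratio. Their number ran from 1 to 6 over all alternatives and from 4 to 5 when each array was left out. Members higher in the interaction numbered 2, and 1 with the mean of all probe sets, no trend and no robust or the actin ratio, and 4 with array weights, with 2 to 4 when each array was left out. Nfe2l2 was also past the threshold there with quantile normalization or the higher filter. Members lower in the interaction numbered 0, and 1 with array weights, with 0 to 1 when each array was left out.

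Of the results that changed sign, 1 had been past the threshold: Nfe2l2 in KO+GH against KO muscle was -0.053 with the actin ratio. Not past it were, in KO against WT, Gclc at 0.037 with array weights and 0.048 without WT 1 and KO 3, Sesn1 at -0.35 without _x_at and _s_at probe sets, and Sesn2 at 0.026 with averaged probe sets and 0.0069 without WT 1 and KO 3. In KO+GH against WT+GH, Nqo1 was -0.032 with the actin ratio, and Gclc was -0.043 with averaged probe sets and -0.037 with the actin ratio. With GH in WT, Nfe2l2 was 0.19 with the mean of all probe sets, Nqo1 was 0.0063 with array weights and 0.059 without WT 1 and KO 3, and Sesn2 was -0.13 with median centring, -0.11 with quantile normalization, -0.18 with averaged probe sets and -0.058 with array weights. With GH in KO, Gclm was -0.081 with median centring and Sesn2 was 0.23 with the actin ratio. When each array was left out in turn, Srxn1 in KO against WT ran from -0.24 to 0.094 and Sesn2 there from -0.27 to 0.021, and with GH in WT Nqo1 ran from -0.12 to 0.064 and Sesn2 from -0.11 to 0.14.

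Over all genes, the reported counts and their range over the alternatives were 306 higher (85 to 655) and 267 lower (59 to 707) in KO+GH against WT+GH, 98 higher (23 to 154) and 86 lower (16 to 130) in KO against WT, 1130 higher (94 to 1581) and 1948 lower (29 to 4195) with GH in KO, 927 higher (260 to 1195) and 1489 lower (227 to 3939) with GH in WT, and 79 higher (45 to 122) and 39 lower (9 to 93) in the interaction. The lowest counts with GH, in KO+GH against WT+GH and in the interaction came with the actin ratio as a covariate, and those in KO against WT with only the groups compared in the fit. With 1 of the KO+GH arrays left out, 190 to 197 genes were higher and 161 to 167 lower in KO+GH against WT+GH. No paired analysis was possible because by their titles no 2 arrays share an animal, and the array numbers within groups pair no arrays across groups. Signal near background limits Sesn2 and the other probe set of Nfe2l2, and 3 arrays per group limit every value.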
